A study of Mus musculus with 16 samples.

Results

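Regions of the genome that carried an H3K27Ac peak in exactly 1 liver cancer nodule, and in none of the other 14 animals, were described. Merging the overlapping and adjoining peaks of the 15 animals gave 55617 regions on chromosomes 1 to 19, of which 55284 lay outside 135 to 140 Mb of chromosome 1, a segment left out by the rule. Of these, 9179 regions (16.6%) had a peak in 1 of the 5 nodules and in no other animal. The members were chosen by the presence and absence of peaks in the same lists, so their number is a description and was not tested. By the same rule, 1866 regions (3.38%) had a peak in 1 inflamed liver alone and 1486 (2.69%) in 1 WT liver alone.

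H3K27Ac is acetylation of lysine 27 of histone H3, a mark of promoters and enhancers in use. Regions that carry it differ between cell types and between states of a tissue. Mdr2, encoded by Abcb4, is the hepatocyte transporter that passes phosphatidylcholine into bile. Without it, bile acids are poorly emulsified, the liver is chronically injured and inflamed, and nodules of hepatocellular carcinoma (HCC) arise late in life.

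H3K27Ac ChIP-seq, in which DNA bound to the marked histone is precipitated and sequenced, was carried out on liver tissue of 15 mice. The WT group was 5 livers of Mdr2-WT mice at 14 to 19 months of age, with the strain given as FVB.129P2 in the labels and as FVB/NJ in the study's methods. The inflamed group was 5 livers of Mdr2-KO mice (FVB.129P2-Abcb4tm1Bor/J) at 7 to 8 months, and the nodule group was 5 HCC nodules of Mdr2-KO mice at 14 to 19 months. All 15 mice, WT included, had received clodronate liposomes by the tail for 48 hours to deplete macrophages, at 50 ug per g of body weight by the labels, while the study's methods state another amount. The mutation is present in every cell from birth, each nodule came from a different animal, and no Mdr2-KO liver tissue outside nodules was sampled at the age of the nodules. Within Mdr2-KO mice, nodule tissue and age therefore cannot be told apart. Between nodules and WT livers, genotype, chronic injury and nodule tissue cannot be told apart. In bulk tissue, fewer marked cells and less mark per cell cannot be told apart either. The study reports gene amplification in tumours of Mdr2-KO mice. The peak lists hold no DNA copy number, so a gain of the mark and a gain of DNA cannot be told apart here, and the part of copy number was not tested. Gene annotation of the build of the files was not used here, so defining markers of liver were not checked.

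The lists held 25867 to 29618 peaks on chromosomes 1 to 19 in WT livers, 35188 to 40063 in inflamed livers and 26235 to 41863 in nodules. The lists give no read counts, so the depth of each library was unknown. The study used mice of both sexes. Peaks on chromosome Y were called in WT animal 134501 (15) and nodule 124711 (13) and in no other animal. The part of sex in the results was not tested. Of the regions with a peak in either of 2 animals, the mean share common to both was 77.3 to 82.0% for an inflamed liver against its group, and 71.8 to 76.2% for 4 of the 5 WT livers. The nodules shared less, at 49.0 to 57.8%, and no nodule had another nodule as its nearest animal. WT animal 130748 (59.7% common with its group) and nodule 124711 (49.0%) stood apart, and each was nearest to the other, with 71.6% in common. Each test is therefore also reported with both left out. The study itself left 2 of its 15 samples out of a principal component analysis of the mark as outliers, and its text does not name them.

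Most regions found in nodules only were found in a single nodule. Of 11777 regions with a peak in at least 1 nodule and in no WT or inflamed liver, 9179 (77.9%) were in 1 nodule, 1944 in 2, 501 in 3, 122 in 4 and 31 in all 5. A merged region spans the peaks of every animal in it, so its width grows with the number of animals by construction, and single peaks give the like comparison. The median width of a single nodule peak was 2217 bp in regions of 1 nodule, 2405 bp in regions of 2 and 2812 bp in regions of 5. On the other side of the rule, 1925 regions had a peak in 1 nodule and in 1 WT or inflamed liver.

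The 5 nodules contributed unequally. Nodule 124711 held 668 of the regions, nodule 123206 held 1234, nodule 125278 held 1520, nodule 123390 held 1820 and nodule 125279 held 3937. Nodule 125279 thus held 42.9% of all members, and they made up 11.05% of its own regions but 5.66% of the bases under its peaks. Its list was also the longest, with 41863 peaks. When each list was cut to its 25867 best peaks, the length of the shortest list, the order changed. Nodule 123390 then held 2314 regions (34.1% of 6795), nodule 123206 held 1515, nodule 125279 held 1393, nodule 124711 held 1053 and nodule 125278 held 520. The first place of nodule 125279 in the count therefore moved with the length of its list.

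In the lists as deposited, all 10 livers held fewer such regions than each of the 4 nodules other than 124711. In WT livers the counts were 69 (129297), 178 (130747), 181 (129296), 389 (134501) and 669 (130748). In inflamed livers they were 138 (148990), 207 (148997), 230 (149199), 277 (148998) and 1014 (149198). Nodule 124711, at 668, lay below 2 of these livers, so the groups overlapped in the count. With lists of equal length, nodule 124711 lay above every liver, and nodule 125278, at 520, lay below WT animals 134501 (717) and 130748 (771), so the nodule that overlapped with the livers changed.

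**Figure D1:**
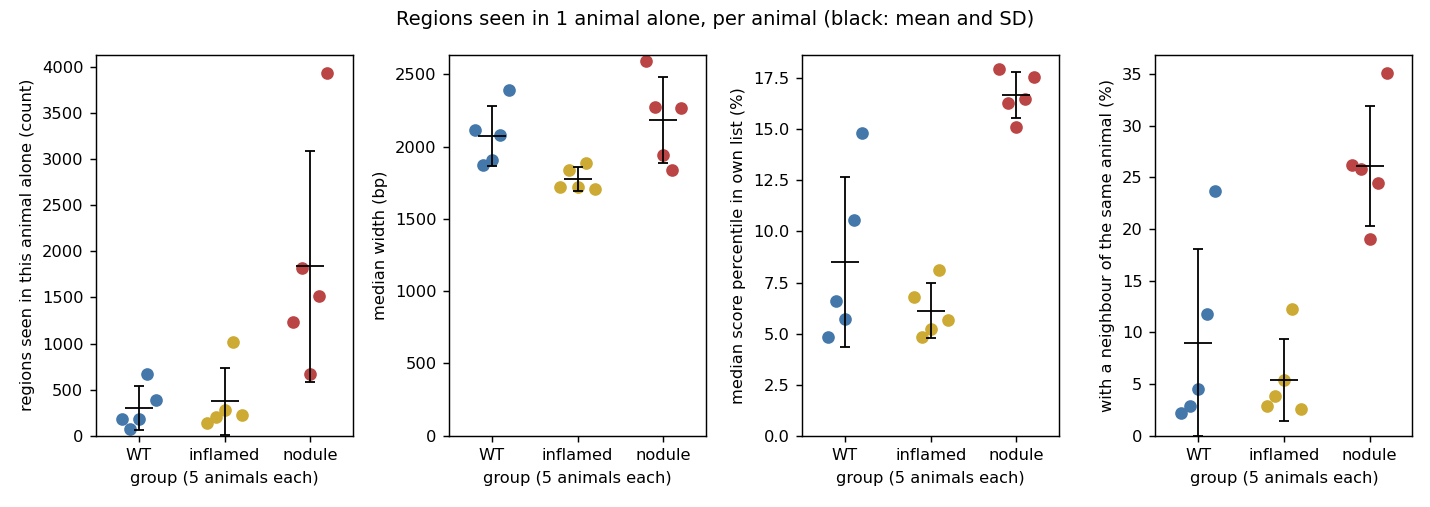
Each point is 1 animal (5 WT livers in blue, 5 inflamed livers in yellow, 5 nodules in red), and the black lines give the mean and SD of the group. From left to right the panels show the count of regions seen in that animal alone, their median width in bp, their median score percentile within the animal's own list and the percentage with a neighbour of the same animal. The nodules lie at 15.1 to 18.0 in score percentile, above every WT and inflamed liver, whereas in width they overlap both groups.

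Members were narrow and were each made of a single peak. The median width over all 9179 was 2217 bp (interquartile range 1759 to 2839.5 bp), against 3860 bp for single nodule peaks in regions of all 15 animals. The narrowest had 494 bp and the widest 37092 bp, and 339 were wider than 5000 bp. By nodule, the median width was 1841 bp in 125278, 1940 bp in 124711, 2265 bp in 125279, 2277 bp in 123390 and 2591.5 bp in 123206. All peaks of these nodules had medians of 2829, 2704, 3116, 3994 and 3494 bp in the same order, so in each nodule the median of its members was below that of its peaks at large. All 9179 together covered 22.9 Mb.

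The width of regions seen in 1 animal alone was compared between groups, with the median of each animal as 1 value. Nodules had 2182.9 ± 299 bp (SD, n = 5), inflamed livers 1775 ± 81.2 bp (n = 5) and WT livers 2073.8 ± 208 bp (n = 5). The medians of inflamed livers lay between 1709.5 and 1886.5 bp, and those of WT livers between 1874 and 2395 bp. The difference from inflamed livers, 407.9 bp, passed the threshold of 0.05 (two-sided exact permutation test, p = 0.0159, adjusted p = 0.0190 over the 6 tests of this kind), although nodule 125278 lay within the range of the inflamed livers. It turned to -18.9 bp when lists were cut to equal length (adjusted p = 0.921, exact permutation test). Without inflamed animal 148998, 149198, 149199 or 148990 it was 365.6 to 394.2 bp, close to its full value, but did not pass (adjusted p = 0.0571 to 0.0857, exact permutation tests). The difference from WT livers, 109.1 bp, did not pass (exact permutation test, p = 0.516, adjusted p = 0.516). With WT animal 130748 and nodule 124711 both left out, the differences were 497.45 bp from inflamed livers and 171 bp from WT livers, with the same calls. With 5 animals against 5 the smallest p this test allows is 0.00794.

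Most members had low scores in their own list. The score is that of the peak caller, with the strongest peaks of every list tied at or near 3100, and it was read only as a percentile within its list, where 100 is the highest. The median score was 95.83, and 4827 of the 9179 (52.6%) were under 100. The median percentile was 17.04 (interquartile range 7.59 to 30.8), against 77.4 for regions of all 15 animals and 22.0 for regions of exactly 2 nodules, both with their scores in nodules. In all, 92.2% of the members lay below percentile 50 of their list, 718 lay at 50 or above and 23 at 90 or above.

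Peaks at percentile 50 or above made up 7.82% of the members, 0% of the regions of 1 inflamed liver alone and 2.42% of those of 1 WT liver alone. At 90 or above the shares were 0.251% of the members (23 regions), 0% and 0.269% (4 regions), so at this height the pooled share among members did not exceed that in WT livers. Both shares rest on few regions. Nodule 123206 held 13 of the 23 and the other nodules 1 to 4 each, so the pooled share does not describe each nodule. The median percentile was 15.1 in nodule 124711, 16.3 in 123390, 16.5 in 125278, 17.6 in 125279 and 18.0 in 123206. The nodules were close together in this measure despite their unequal counts. In inflamed livers it was 4.82 to 8.12, and in WT livers 4.86, 5.71, 6.59, 10.6 and 14.8, the last in animal 134501. No liver reached the lowest nodule.

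The group means were 16.7 ± 1.14 (SD, n = 5) in nodules, 6.12 ± 1.34 (n = 5) in inflamed livers and 8.51 ± 4.16 (n = 5) in WT livers. Nodules exceeded inflamed livers by 10.6 percentile points (two-sided exact permutation test, p = 0.00794, adjusted p = 0.0159) and WT livers by 8.17 points (p = 0.00794, adjusted p = 0.0159, same exact test). The difference from inflamed livers was larger than the range within either group. The WT medians ran from 4.86 to 14.8, a range wider than the difference from WT livers, and the highest was close to the lowest nodule at 15.1. Leaving out WT animal 130748 and nodule 124711 gave 11.2 points (adjusted p = 0.0238, exact permutation test) and 9.40 points (adjusted p = 0.0343, exact permutation test). The difference from WT livers lost its call when only the top 50% of each list was used (7.25 points, adjusted p = 0.107, exact permutation test). A strong peak enters this comparison only where all other animals lack it. The nodules had fewer regions in common with their group (49.0 to 57.8%) than inflamed livers (77.3 to 82.0%). The part of this lower sharing in the percentile differences was not tested.

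**Figure D2:**
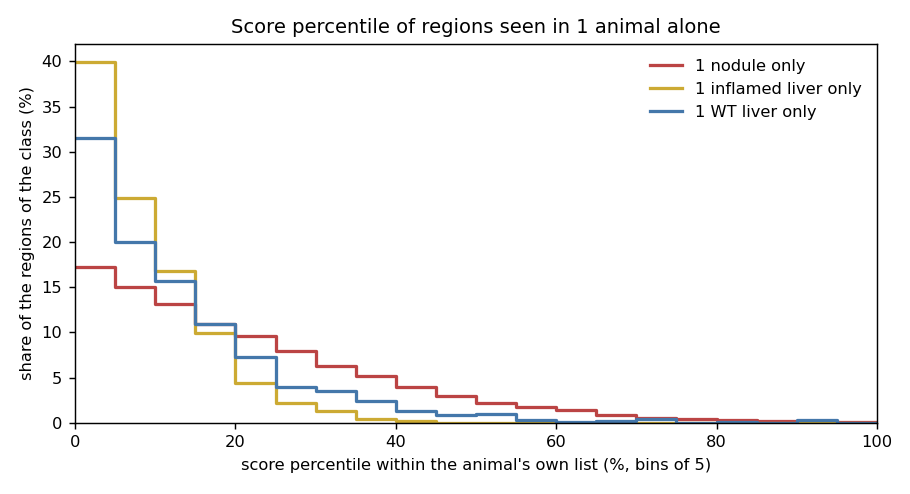
The horizontal axis is the score percentile within the animal's own list in bins of 5, and the vertical axis is the percentage of the regions of each class in a bin (red, 9179 regions of 1 nodule alone; yellow, 1866 of 1 inflamed liver alone; blue, 1486 of 1 WT liver alone). The lowest bin held 17.2% of the nodule regions, 39.9% of the inflamed and 31.5% of the WT regions, and the red line lies above the others in every bin from percentile 20 to 90.

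The members with the strongest peaks were spread over several chromosomes in 4 of the nodules. In nodule 124711 the member with the highest score lay at chr5:129104222-129108581 (mm9, 4360 bp, score 3193.53, percentile 99.8), and its next best, at chr5:99464661-99467378 and chr9:70833830-70837605, had percentiles of 73.3 and 67.7. In nodule 125278 they lay at chr4:126408475-126414464, chr11:61254269-61258609 and chr18:61285593-61292179, at percentiles of 92.2, 92.2 and 84.3. In nodule 125279 the strongest was a peak of 10658 bp at chr16:95456216-95466873 (score 3184.23, percentile 99.8), followed by chr8:14919608-14927475 and chr10:84520028-84527680 at 93.9.

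In nodule 123390, 2 of the 3 strongest members were less than 1 Mb apart, at chr4:73189245-73199905 and chr4:72767761-72777676, and the other lay at chr2:52006421-52012592 (percentile 94.6 for each). In nodule 123206, by contrast, all 3 came from a single stretch of chromosome 9. They were chr9:7499813-7514261 (14449 bp, score 3175.79, percentile 99.7), chr9:7525613-7555328 (29716 bp, percentile 92.9) and chr9:6716893-6729820 (12928 bp, percentile 92.9). The 3 widest of all 9179 members were from the same stretch, at 37092 bp (chr9:7109388-7146479, percentile 80.7), 29716 bp (the second region above) and 26986 bp (chr9:6819740-6846725, percentile 69.4). This nodule also held 13 of the 23 members with a score of at least 3100.

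Members were often neighbours of each other. A region was counted as having a neighbour when the merged region just before or just after it on the chromosome was also seen in the same animal alone. Of the 9179 members, 2674 (29.1%) had such a neighbour, and 4665 (50.8%) had another member of the same nodule within 100 kb. By nodule, the share with a neighbour was 19.0% in 124711, 24.5% in 125278, 25.8% in 123390, 26.2% in 123206 and 35.1% in 125279.

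In inflamed livers the share with a neighbour of the same animal was 2.61 to 12.2%, below every nodule. In WT livers it was 2.21, 2.90, 4.49, 11.8 and 23.7%, the last in animal 134501, which lay above nodule 124711. The means were 26.1 ± 5.79% (SD, n = 5) in nodules, 5.40 ± 3.97% (n = 5) in inflamed livers and 9.01 ± 9.03% (n = 5) in WT livers. The difference was 20.7 percentage points from inflamed livers (two-sided exact permutation test, p = 0.00794, adjusted p = 0.0159) and 17.1 points from WT livers (p = 0.0159, adjusted p = 0.0190, same exact test). The difference from WT livers lost its call when only the top 50% of each list was used (14.3 points, adjusted p = 0.107, exact permutation test). Without WT animal 130748 and nodule 124711 these were 23.0 points (adjusted p = 0.0238, exact permutation test) and 20.8 points (adjusted p = 0.0343, exact permutation test).

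The share is built from the same presence and absence of peaks that the rule used. It can also rise with the number of regions an animal holds, and the part of the counts in the difference was not tested. The p-values of the neighbour tests therefore cannot show clustering apart from the rule and the counts. Animals with like counts can be set side by side. Nodule 124711 had 668 regions and a share of 19.0%, and WT animal 130748 had 669 regions and 11.8%. Nodule 123206 had 1234 regions and 26.2%, and inflamed animal 149198 had 1014 regions and 12.2%. Of the regions of nodule 123206, 111 lay in a single segment of chromosome 9, with 27 of them in a row. The share of this nodule without that segment is not given here. The part of that segment in the gap between these animals was therefore not tested. WT animal 134501 reached 23.7% with 389 regions, so a high share was also seen in a liver without a nodule and with few regions. Only this animal and nodule 124711 had peaks called on chromosome Y, and the part of sex was not tested.

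In their distance to the other peaks of the same animal, the nodules overlapped with the livers. The median distance to the nearest region that the same animal shared with another was 3638 bp in nodule 123390 and up to 11522.5 bp in the other nodules, against 9753.5 to 11736 bp in inflamed livers and 7423 to 16708 bp in WT livers. In nodule 123390, 73.4% of the members were within 10 kb of such a region. The range over all 5 nodules was 46.9 to 73.4%, against 46.4 to 50.9% in inflamed and 37.7 to 57.7% in WT livers.

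Segments of 5 Mb with at least 20 merged regions were then compared, 467 in all. Members were found in 265 segments for nodule 124711, 371 for 123206, 394 for 125278, 403 for 123390 and 459 for 125279. The 10 fullest segments together held 7.68% of the members of nodule 125279, 11.04% of those of 125278, 11.4% of those of 123390, 13.1% of those of 124711 and 17.2% of those of 123206.

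**Figure D3:**
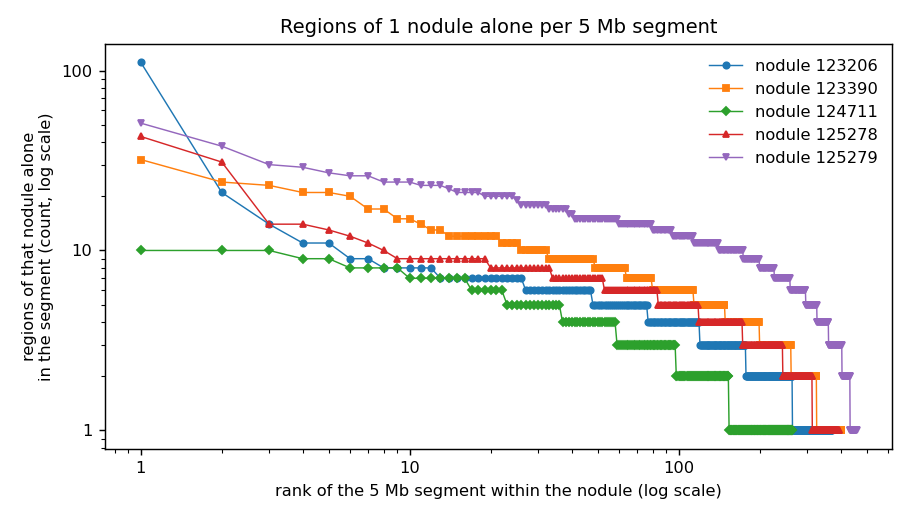
For each nodule, 5 Mb segments are ranked on the horizontal axis (log scale) by the number of its own regions they hold, which is on the vertical axis (log scale). The line of nodule 123206 begins at 111 and drops to 21 at its second segment, whereas those of the other nodules begin between 10 and 51 and fall in smaller steps.

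An even spread was taken as a nodule's members shared out over segments in proportion to all merged regions. In 27 pairs of a nodule and a segment, at least 10 members were found and at least 3 times the even spread, with 594 members (6.47%) in these pairs. The 27 pairs fell in 27 different segments, so no segment was rich in members of 2 nodules by this measure. A region with a peak in 2 nodules is not a member, so the rule itself works against such a segment. The overlap to be expected of 27 pairs among 467 segments was not computed, so the lack of overlap is a description only. Nodule 123390 had 11 such segments, 123206 had 5, 125278 and 125279 had 4 each and 124711 had 3.

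On chromosome 9 from 5 to 10 Mb, nodule 123206 held 111 members among 162 merged regions (68.5%), 30.7 times the even spread. They ran from base 5927409 to base 8167714, over 2.24 Mb, and made up 8.995% of the members of this nodule. Their median width was 4519 bp and their median percentile 40.7, against 2531 bp and 16.8 for the other members of the nodule, and 53 of its 107 members wider than 5000 bp lay here.

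The largest group of members with gaps of at most 100 kb lay within this segment, at chr9:6675959-7716556. Over 1041 kb it held 80 merged regions, each with a peak in nodule 123206, and 70 of them had a peak in no other animal. The other 14 animals had 2 to 10 peaks there. Peaks of nodule 123206 covered 74.6% of the stretch, and those of the other animals 0.377 to 2.85%. The members had a median width of 5904.5 bp and a median percentile of 53.6. A region found in all 15 animals, not a member, had 23.1 kb under peaks in nodule 123206 and 2.24 to 3.92 kb in the others.

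A second group, at chr9:6080744-6457309, held 35 members among 36 regions, with 36 peaks in nodule 123206 and 0 to 2 in each other animal. It contained the longest unbroken run of members, 27 regions in a row at chr9:6184273-6457309. In the other nodules the longest run was 8 regions (125279, chr2:73859848-74221297) or 5, and in WT and inflamed livers it was at most 5 and 3 regions.

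**Figure D4:**
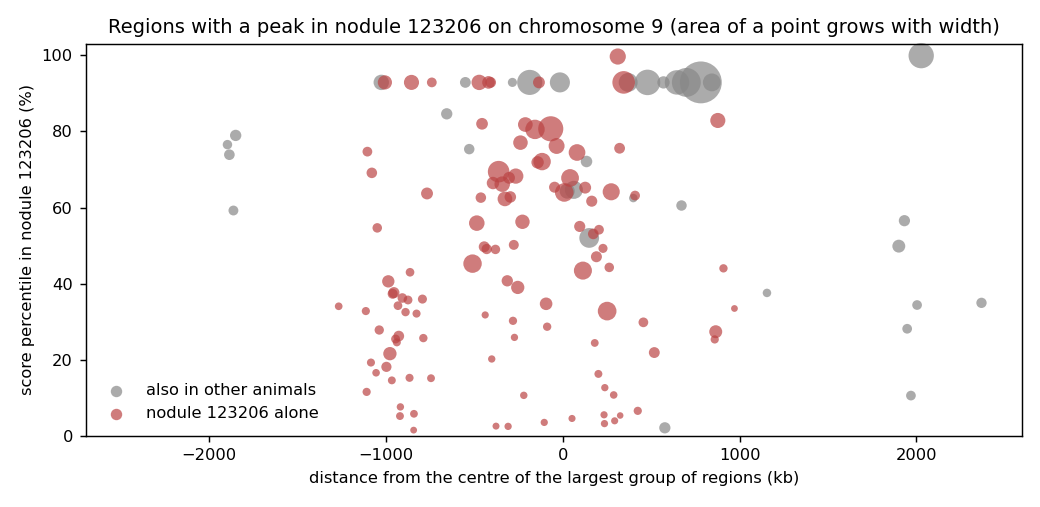
Each point is a merged region with a peak in nodule 123206, placed on the horizontal axis by its distance in kb from the centre of the largest group of members on chromosome 9 and on the vertical axis by its score percentile in that nodule. Red points were seen in nodule 123206 alone and grey points in other animals too, and larger points are wider regions. Red points fill a stretch of about 2.24 Mb and reach percentiles above 90, and grey points alone remain beyond it.

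Outside chromosome 9, members gathered less densely. Nodule 125279 held 51 members among 176 regions on chromosome 8 from 10 to 15 Mb (4.07 times the even spread), with 15, 12 and 20 more in the segments from 1 to 5000000, 5000001 to 10000000 and 15000001 to 20000000. Nodule 125278 held 43 members among 187 regions on chromosome 18 from 5 to 10 Mb (8.36 times) and 31 among 194 from 10 to 15 Mb (5.81 times). Nodule 123390 held 32 on chromosome 13 from 110 to 115 Mb (4.52 times) and 24 on chromosome 5 from 85 to 90 Mb (6.13 times). Nodule 123206 held 21 on chromosome 14 from 20 to 25 Mb (4.73 times). In nodule 124711 no segment held more than 10.

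The largest groups with gaps of at most 100 kb were correspondingly smaller in these nodules. There were 13 members among 29 regions at chr18:10328327-10708134 in nodule 125278, 13 among 26 at chr10:95477398-95806615 in 125279, 12 among 23 at chr5:87325222-87606700 in 123390 and 8 among 12 at chr4:153731830-153857894 in 124711. In each of them the other animals had fewer peaks than the nodule, for example 0 to 4 against 12 at the last of these. Those peaks were partly what the rule used, so this is a description.

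Members were also unevenly spread over whole chromosomes. Chromosome 18 held 146 of the members of nodule 125278, or 9.61%, against 3.60% of all merged regions, a ratio of 2.67. Its members exceeded the even spread in 13 of the 18 segments of that chromosome. Chromosome 9 held 14.5% of the members of nodule 123206 against 5.54% of all regions (ratio 2.62), but without the segment from 5 to 10 Mb these were 6.06% and 5.26% (ratio 1.15). Chromosome 14 held 6.65% of them against 3.96% (1.68), and chromosome 15 held 6.73% of those of nodule 125279 against 4.38% (1.54).

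Regions found in all 15 animals contain no members, and the rule did not use the bases under peaks in them. These regions come from the same lists and the same merging, so their bases are a description and not separate support. For each animal, the bases under its peaks in these regions within a segment were expressed per 10000 of its own total. On chromosome 9 from 5 to 10 Mb the value was 28.9 in nodule 123206, against 4.18 to 12.3 in the other 14 animals, 3.14 times their median of 9.19. This rests on 7 regions. Among them is the region of 23.1 kb in the largest group, which peaks of nodule 123206 covered in full. On chromosome 8 from 10 to 15 Mb it was 58.0 in nodule 125279 against 33.9 to 47.2, over 37 regions.

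On chromosome 18, nodule 125278 had 24.3 from 5 to 10 Mb against 12.7 to 20.1, and 43.7 from 10 to 15 Mb against 28.1 to 41.8. Over the whole of that chromosome its peaks in these regions took 3.53% of its total, against 2.76 to 3.41% in the others. On chromosome 14 from 20 to 25 Mb nodule 123206 had 36.2 against 23.1 to 28.1, and over the chromosome 4.02% against 3.61 to 3.81%. Over the 10 pairs of a nodule and a segment with the most members and the 2 fullest segments of each nodule, 14 pairs in all, the nodule that held the members was first of the 15 animals in 10. Among the other 4 was chromosome 13 from 110 to 115 Mb, where nodule 123390 had 32.2 and the others 20.4 to 33.6.

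The number of peaks outside the members, per 10000 of the animal's own such peaks, set the nodules less apart. By this measure the nodule was first in 7 of the 14 pairs. On chromosome 9 from 5 to 10 Mb nodule 123206 had 12.5 and was second, with 5.90 to 13.0 in the others (1.17 times their median). Nodule 125279 had 33.4 on chromosome 8 from 10 to 15 Mb, where the others had 25.8 to 38.9, and nodule 125278 had 36.6 on chromosome 18 from 10 to 15 Mb, where they had 26.9 to 42.1. On chromosome 18 from 5 to 10 Mb nodule 125278 was first, at 33.1 against 14.6 to 31.7.

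**Figure D5:**
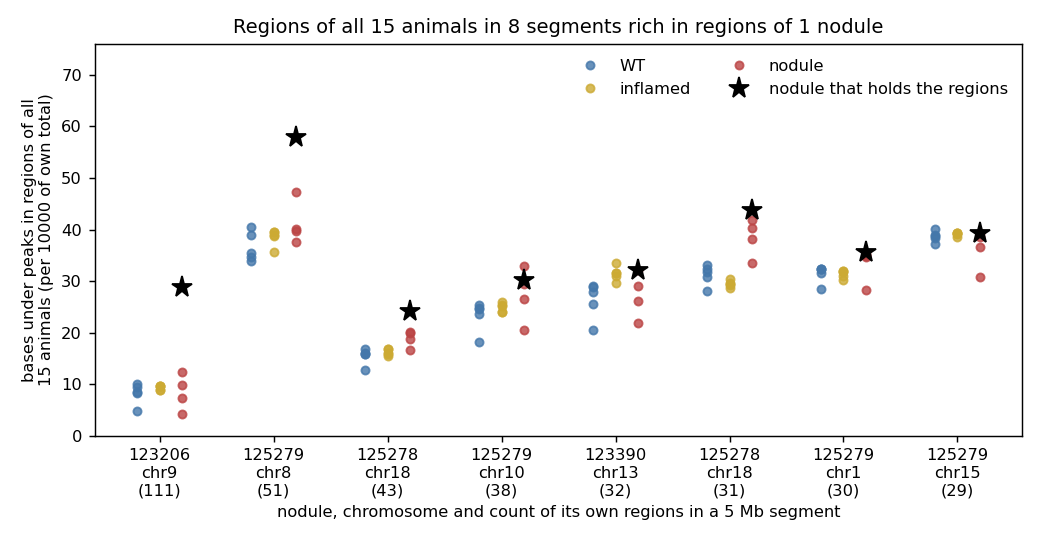
The 8 pairs of a nodule and a 5 Mb segment with the most members are on the horizontal axis, with the chromosome and the number of members. The vertical axis gives the bases under peaks in regions of all 15 animals, per 10000 of the animal's own total. The star is the nodule that holds the members and circles are the other 14 animals (blue WT, yellow inflamed, red nodules). The star is highest at chromosome 9 (28.9 against at most 12.3), chromosome 8, both parts of chromosome 18 and chromosome 1, and within the others' range at chromosomes 10, 13 and 15.

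Over all 2175 pairs of a nodule and a segment with at least 5 regions of all 15 animals, the nodule was first of 15 in bases under shared peaks in 231 (10.6%), and in peaks outside the members in 208. In the 26 such pairs with at least 10 members and at least 3 times the even spread it was first in 17 (65.4%) by bases, with a median of 1.23 times the median of the other animals, and in 13 by peaks, with 1.18 times. In the 369 pairs with 0 members it was first in 16 (4.34%) by bases, with a median of 0.910 times, and in 23 by peaks, with 0.890 times. The sets of pairs draw unequally on the nodules. Of 467 segments, nodule 124711 had 202 without a member and 3 with at least 10 members and 3 times the even spread. Nodule 123390 had 64 and 11. The contrast between the sets therefore mixes the nodule with the number of members. Neighbouring segments and the 5 nodules also share libraries, so these shares carry no test.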

How the data were processed

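H3K27Ac ChIP-seq peaks of 15 mice were analysed, 5 WT livers, 5 inflamed Mdr2-KO livers and 5 HCC nodules. The remaining library, a control with IgG as its antibody label, was not used. The sample records gave each animal's group and number. The authors ran the peak calling animal by animal and deposited 1 list per animal with positions and a score for each peak, from which no read depth can be derived. The submitters' processing notes name Bowtie 0.12.7, MACS 1.4 and mm9. The filters and the control used in calling are not given in the sources used here, and more deeply sequenced libraries can yield longer lists. Peaks on chromosome 1 ended as far as 197069010, and coordinates are printed in mm9 from base 1. No mm9 genome or annotation was used, so no gene names or sequences are given.

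Peaks on chromosomes 1 to 19 were merged where they overlapped or adjoined. A region's score was that of its highest peak, as the mean-rank percentile within its own list. Group differences used the median or share of each animal (n = 5 per group) in two-sided exact permutation tests, with Benjamini-Hochberg adjustment over 6 tests. The p-values measure the spread between animals. Members, named regions and comparisons were chosen with earlier results of these data known. Named regions were the 3 members with the highest percentile in each nodule (ties by width, then position), the 3 widest and the longest run of each nodule, and the segments were the 10 pairs of nodule and segment with the most members and the 2 fullest of each nodule. Other regions and segments named were chosen after their values were seen. Alternatives were the top 50% of each list, lists of equal length (25867 peaks), merging over gaps of up to 1000 bp, scores of at least 100, neighbours within 100 kb, segments of 2 or 10 Mb and leaving out each animal. Leaving out WT animal 130748 with nodule 124711, and chromosome 9 from 5 to 10 Mb, were added after seeing the data. The code was tested on simulated lists. Python 3.11.15, NumPy 2.4.6, pandas 2.3.3, SciPy 1.17.1 and matplotlib 3.10.9 were used.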

Additional observations from a re-analysis of the deposited data

Results flagged for a closer look

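Inflamed animal 149198 held 1014 regions seen in it alone, far from the other 4 inflamed livers at 138 to 277. Nodule 124711 had 28.3 per 10000 of its shared peak bases in the 5 Mb of chromosome 1 from base 170000001, where it lay far below the other nodules, and nodule 123206 had 36.2 on chromosome 14 from 20 to 25 Mb, far above the others. Each of these was a sample far from the rest of its group of 5 by Dixon's ratio, which chance alone gives in about 1 of 20 groups, and 26 groups were looked at. Chromosome X was not part of the comparisons. The regions of 1 nodule alone there numbered 91 in nodule 125279, 58 in 123390, 49 in 123206 and 36 in 125278, all above the highest WT or inflamed liver (28), whereas nodule 124711 had 7. Nodule 124711 and WT animal 134501, the only animals with chromosome Y peaks, had the fewest peaks on chromosome X (448 and 508).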

How the results depend on the processing

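The number of members ranged from 6516 (without nodule 125279) to 9846 over the omissions of 1 animal, and was 4410 with the top 50% of each list. Their median width ranged from 2178 to 2304 bp over the omissions, and was 3888.5 bp with the top 50%, 2753 bp with equal lists and 2692 bp with scores of at least 100. The share with a neighbour was 26.3 to 31.6% over the omissions, and 50.8% when a neighbour was any other within 100 kb. The width difference from inflamed livers was 320.8 to 493.0 bp over the omissions. It was no longer past the threshold with the top 50% (358 bp, adjusted p = 0.543) or scores of at least 100 (423.2 bp, adjusted p = 0.0762), and turned to -18.9 bp with equal lists (exact permutation tests). The percentile difference from WT livers was 7.25 (adjusted p = 0.107) and the neighbour difference from WT livers 14.3 points (adjusted p = 0.107) with the top 50% (exact permutation tests). The cause of these changes was not tested. Over the omissions the percentile differences were 9.69 to 11.3 (inflamed) and 6.57 to 9.78 (WT), and the neighbour differences 18.4 to 23.1 and 15.0 to 20.9 points, with the same calls throughout. Without chromosome 9 from 5 to 10 Mb all 6 tests kept their calls. For the neighbour tests, kept calls do not show clustering, because their measure is built from the peak presence that the rule used and can rise with the counts. In 2 Mb segments the most members in a segment were 18 (125278), 30 (125279) and 19 (123390), the last on chromosome 5 from base 146000001 and not on chromosome 13. No paired analysis was possible because the groups share no animal numbers. Without read counts, a region without a peak may still carry the mark below the calling threshold, and peak presence limits every count given here.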
